A study of Homo sapiens with 34 samples.

Results

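Chromosome 19 carries the densest collection of zinc finger genes in the human genome, and their promoters and gene bodies were examined here in KELLY cells. The genes were defined by name: protein-coding genes of the GENCODE annotation on chr19 whose symbol is ZNF followed by digits. This rule was set with earlier results of these data known. It gave 240 of the 1476 protein-coding genes of chr19, among 19970 protein-coding genes in all. They were set against the other 1236 chr19 genes and against 236 genes of the same naming on other chromosomes. KELLY is a cell line grown from a human neuroblastoma in which MYCN is amplified, and the cells used carried a doxycycline-inducible short hairpin RNA against the co-repressor gene RUNX1T1. Cells had received the solvent DMSO or Doxycycline for 72 h, so every group holds the hairpin construct and the groups differ in the inducer. Chromatin immunoprecipitation with sequencing had been done for H3K4me3, H3K4me2, H3K4me1, H3K27ac and H3K27me3, with 3 libraries per mark and treatment, and a list of peaks was available for each of the 30 libraries. Nothing says that libraries of a group came from separate cultures, and no list measures the knockdown itself.

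Most genes of this family encode proteins with a row of C2H2 zinc fingers that read DNA and a KRAB domain that recruits the co-repressor TRIM28. TRIM28 brings the methyltransferase SETDB1 and HP1 proteins, and in many cases the bound DNA is a transposable element. The genes spread by tandem duplication and lie in clusters, where neighbours share much of their sequence. The naming rule also admits genes without a KRAB domain, such as ZNF536 and ZNF296. Of the marks, H3K4me3 sits at active or primed promoters, H3K4me2 and H3K4me1 at promoter flanks and enhancers, H3K27ac at active elements, and H3K27me3 at sites of Polycomb repression.

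The depth behind the peak calls was taken as the smaller of the ChIP and input reads of a list. It was 71.9 to 81.1 M reads in DMSO and 57.0 to 63.4 M reads in Doxycycline, so treatment and this depth cannot be told apart. The ChIP reads alone overlapped, at 71.9 to 85.2 M in DMSO and 57.1 to 84.6 M in Doxycycline. Each annotated start of a gene, with 1 kb before and after it, counted as its promoter, which was called marked when any peak of a library touched it. Neuroblast identity was read from genes of the sympathetic lineage, of which the transcription factor gene GATA3 and the catecholamine synthesis genes TH and DBH each carried H3K4me3 and H3K27ac in 6 of 6 libraries. Of 7 genes of blood, liver, epithelium, muscle and endothelium, 7 had no H3K27ac peak in any library. Of reads of the sequenced length cut from the reference, 98.5% of those taken from the zinc finger promoters and 97.5% of those from other chr19 promoters matched a single place on the primary chromosomes, with at most 1 differing base allowed. The gene bodies gave 97.7% and 97.2%, so lack of unique sequence was of like size in both sets.

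Nearly all zinc finger promoters carried the marks of active promoters. H3K4me3 was found at 97.1, 96.7 and 96.2% of the 240 promoters in the DMSO libraries and at 96.2, 95.8 and 95.8% in the Doxycycline libraries. Among other chr19 genes the share was 68.4 to 71.0% over the same 6 libraries, and the difference within a library averaged 26.1 points (SD 0.806, n = 6 libraries). H3K27ac was found at 90.8 to 92.9% of the members against 63.4 to 66.1% of other chr19 genes, a difference of 27.04 points (SD 0.905, n = 6). H3K4me2 was found at 91.7 to 96.2% against 69.5 to 79.1%, a difference of 20.7 points (SD 2.04, n = 6). In each of these 3 marks the ranges of the sets did not overlap. The zinc finger genes on other chromosomes stood close to the members, with H3K4me3 at 92.4 to 93.6% and H3K27ac at 89.8 to 91.5%. Another 21 zinc finger genes of chr19 bear names of other forms, such as ZFP or ZSCAN with a number. They were counted among the other 1236 genes, and had H3K4me3 at 81.0% in each library and H3K27ac at 76.2 to 81.0%.

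H3K4me1 and H3K27me3 behaved otherwise. H3K4me1 ranged from 72.1 to 89.6% of members, so widely that the range of other chr19 genes (75.4 to 79.5%) lay within it. The mean difference of 3.65 points was smaller than its SD of 5.79, and it turned to -16.8 points when only peaks with a q-value of 0.001 or less were kept. Among promoters with H3K4me3 in all 6 libraries the members were lower. There H3K4me1 was found at 75.2 to 93.0% of 230 members and 96.1 to 98.6% of 838 other chr19 genes. Among 218 such zinc finger genes on other chromosomes it was found at 74.8 to 91.3%. H3K27me3 was rare at the members. It was found at 17.5, 6.67 and 13.3% of promoters in DMSO and at 19.6, 15.8 and 10% in Doxycycline, against 35.8 to 42.6% of other chr19 genes. In each of the 6 libraries the members were lower, by 22.4 to 29.7 points. The zinc finger genes on other chromosomes were close to the members, at 11.4 to 20.3%. The 21 zinc finger genes of other names on chr19 were not, at 33.3 to 47.6%.

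**Figure D1:**
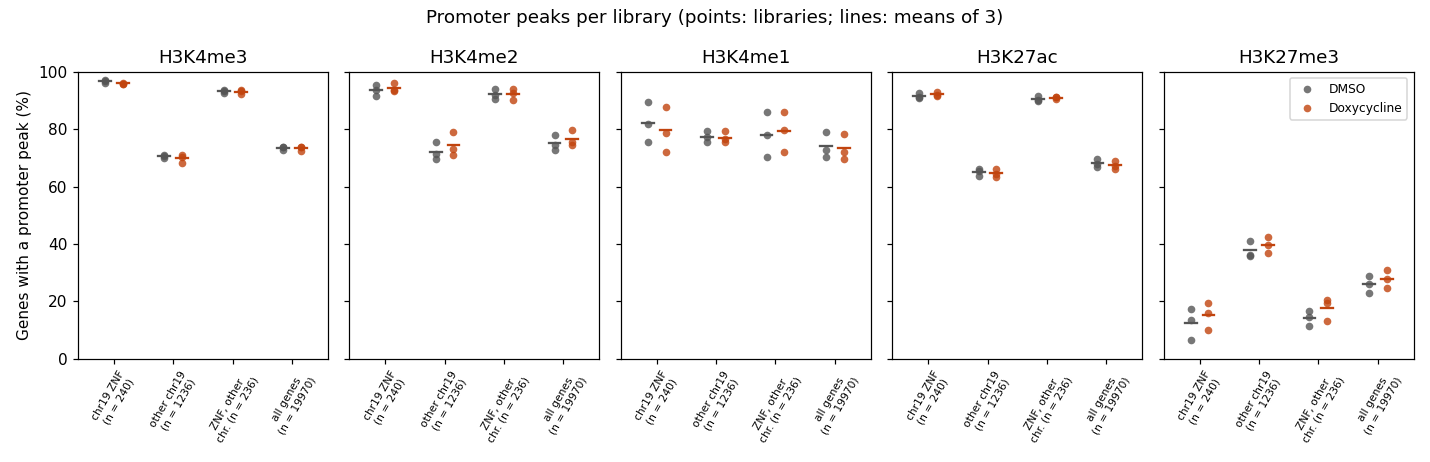
Share of genes (y axis, percent) with a peak within 1 kb of a start site, in each library (points) of DMSO (grey) and Doxycycline (orange), with the mean of 3 libraries as a line, for 4 sets of genes and 5 marks. For H3K4me3 the 240 chr19 zinc finger genes sit between 95.8 and 97.1%, above the other chr19 genes at 68.4 to 71.0%, and for H3K27me3 they sit below them in every library.

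Read as combinations, 230 of the 240 members had H3K4me3 in all 6 libraries, against 67.8% of other chr19 genes. There were 161 members (67.1%) with H3K4me3 and H3K27ac in all 6 libraries and no H3K27me3 in any, against 47.4% of other chr19 genes. Bivalent promoters, with H3K4me3 and H3K27me3 in all 6, were few: 4 members (1.67%) against 12.2%. No member had H3K27me3 in all 6 libraries while lacking H3K4me3, a state held by 17.6% of other chr19 genes. No member lacked every mark in all 30 lists, against 2.75% of other chr19 genes. Of the members, 58 had a window that overlapped that of another protein-coding gene, and their peaks cannot be assigned to a single gene.

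The members were marked even where their promoters held few CpG dinucleotides. The number of CG dinucleotides was counted in the 1 kb centred on the start site of each gene that had the most of them, and its median was 61 in members and 67 in other chr19 genes. No member fell below 20. Among genes with 20 to 39, H3K4me3 was found at 95.7% of 23 members and at 21.6% of 201 other chr19 genes, as means over 6 libraries. With 40 to 59 the shares were 91.9% of 84 members and 68.2% of 172 others, and with 60 or more 99.2% of 133 and 95.2% of 740. H3K27me3 at 20 to 39 was found at 13.04% of members and 60.3% of others. The gap between the sets was thus widest among CpG-poor promoters and small among CpG-rich ones.

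The peaks of members were narrower than those of other chr19 genes in each mark, while H3K4me3 and H3K27ac were of like fold. Median H3K4me3 width, taken as the summed length of the peaks that touch the promoter, was 1854, 1864 and 1761 bp in DMSO and 1860, 1832.5 and 1634 bp in Doxycycline. In other chr19 genes with a peak it was 2064 to 2467.5 bp, and the mean log2 ratio was -0.35 (SD 0.05, n = 6 libraries). Fold enrichment was taken from the touching peak with the smallest q-value. Its median was 22.1 to 39.1 in members and 20.7 to 40.7 in others. By fold, members stood at the median percentile 47.8 to 56.2 of chr19 genes. For H3K27ac the widths were 1348.5 to 1539 bp against 2509 to 3962 bp (mean log2 ratio -1.12, SD 0.17), again with a fold at the median percentile 46.8 to 55.7. Ranked by −log10 q-value, members stood lower than by fold in both marks. They were at percentile 39.5 to 43.2 for H3K4me3 and 41.9 to 47.4 for H3K27ac. H3K4me1 was narrower (mean log2 ratio -1.05, SD 0.23) and also weaker, at percentile 22.7 to 34.04 by fold. H3K4me2 stood at percentile 30.5 to 39.8 and H3K27me3 at 12.4 to 14.8 by fold. Where H3K27me3 was called at all, its median width was 352 to 3749 bp against 4150 to 35734.5 bp. Membership thus went with a lower width in each of the 30 lists. The promoter windows of other chr19 genes were also longer, on average 5798 bp against 4503 bp in members, and can gather more peaks. With the 5′ end as the only start site the mean log2 ratios were smaller but still negative. They were -0.27 (H3K4me3), -0.36 (H3K4me2), -0.77 (H3K4me1), -0.92 (H3K27ac) and -2.87 (H3K27me3).

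**Figure D2:**
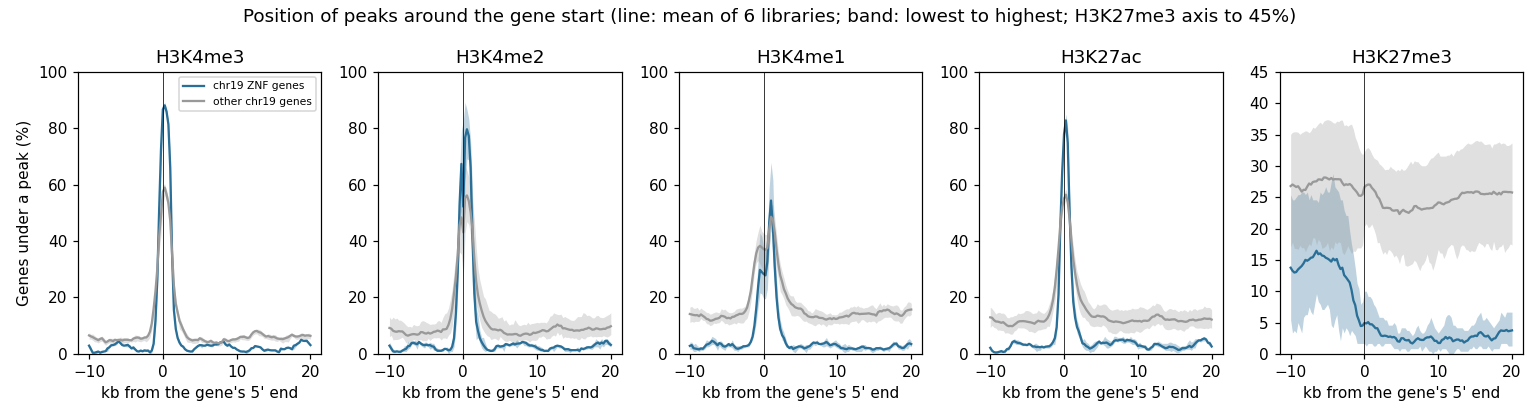
Share of genes lying under a peak (y axis, percent) at each distance from the 5′ end of the gene (x axis, kb, negative values before the gene), for chr19 zinc finger genes (blue) and other chr19 genes (grey). Lines are means of 6 libraries and bands run from the lowest to the highest library. H3K4me3 of the members peaks at 88.1% and H3K27me3 falls from 15.2% at 5 kb before the start to 2.50% at 5 kb after it.

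Around the start, the marks took up the usual order. The share of members under a peak was highest 250 bp after the 5′ end for H3K4me3 (88.1%) and H3K27ac (82.8%), 500 bp after it for H3K4me2 (79.7%) and 1000 bp after it for H3K4me1 (54.4%). H3K4me1 dipped to 28.3% at the 5′ end itself. At 5 kb on either side each of these 4 marks covered under 4% of members, against 5.02 to 16.1% of other chr19 genes.

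Peaks covered less of the bodies of members than of other chr19 genes on average. The mean share of body bases under H3K4me1 peaks, from 1 kb after the 5′ end to the 3′ end, was 3.75 to 5.69% in members and 15.4 to 20.9% in other chr19 genes. Under H3K27ac it was 2.79 to 5.24% against 10.5 to 19.4%, and under H3K4me3 2.58 to 3.25% against 6.07 to 8.33%. Under H3K27me3 it was 1.02 to 4.50% against 16.2 to 30.3%. The ranges of the sets did not overlap in these 4 marks. H3K4me2 was 2.58 to 4.73% against 7.39 to 16.7%. H3K27me3 was as low in the bodies of zinc finger genes on other chromosomes, at 2.04 to 5.11%. In the 21 zinc finger genes of other names on chr19 it was 13.4 to 26.3%. Bodies with no peak at all were not more common among members, except for H3K27ac. Bodies without H3K4me1 in any library were 8.33% of members and 14.9% of others, and without H3K27me3 42.9 and 48.8%. For H3K27me3 the median coverage was 0.132% in members and 0.0664% in others, the reverse of the order of the means. H3K27ac was lacking in 42.9% of members and 30.8% of others. The members were longer genes, with a median length of 25.4525 kb against 13.985 kb in other chr19 genes. The part of this length in the coverage of bodies and in the share without a peak was not tested.

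H3K27me3 covered more of the sequence before the members than of their bodies. In the stretch from 10 to 2.5 kb before the 5′ end, 21.5, 7.07 and 6.22% of bases were under H3K27me3 peaks in DMSO and 25.5, 20.1 and 7.56% in Doxycycline. In the bodies of the same genes the values were 3.96, 1.02 and 1.25% in DMSO and 4.50, 3.16 and 1.08% in Doxycycline. Coverage before the gene was therefore 4.97 to 7.02 times that in the body, in each of 6 libraries. In other chr19 genes the same ratio was 1.07 to 1.198. Their coverage before the gene was 33.9, 21.8 and 17.2% in DMSO and 36.3, 33.9 and 20.7% in Doxycycline. The members were thus below other chr19 genes before the gene too in each library, and further below them in the body by ratio. Past the 3′ end of the members, over 10 kb, coverage was 2.80 to 3.98 times that in the body. Among the 117 members with no other protein-coding gene in the 10 kb before them, the ratio was 5.69 to 8.81. The coverage itself went with the length of the fragments as MACS2, the program that called the peaks, had estimated it. The 3 lists with estimates of 256 to 280 bp gave 20.1 to 25.5% before the gene, and the 3 with 105 to 112 bp gave 6.22 to 7.56%. The part of this estimate in the amount of coverage was not tested, while the ratio showed the same direction in both kinds of list.

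On chr19, joining members whose starts lay at most 1 Mb apart gave 9 clusters of 5 or more, with 9 members outside them. In order along the chromosome they ran from ZNF554 to ZNF77 (5 members), ZNF557 to ZNF846 (15), ZNF653 to ZNF791 (25), ZNF101 to ZNF254 (37), ZNF302 to ZNF792 (5), ZNF565 to ZNF573 (24), ZNF575 to ZNF296 (24), ZNF175 to ZNF331 (39) and ZNF628 to ZNF446 (57). The cluster from ZNF101 to ZNF254 spans 19.7 to 24.1 Mb of hg38, next to the centromere on the short arm. It holds primate genes such as ZNF91, which represses SVA elements, and ZNF93, which represses LINE-1 elements.

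This pericentromeric cluster stood apart in the 3 methylation states of H3K4. Its mean share was 86.9% for H3K4me3, against 94.9 to 100.0% in the other 8 clusters. For H3K4me2 it was 75.2% against 93.3 to 100.0%. For H3K4me1 it was 39.6% against 82.9 to 96.7%, and the libraries ranged from 13.5 to 59.5%. In each of these marks it was the lowest cluster in 6 of 6 libraries. Only 3 of its 37 members (8.11%) had H3K4me1 in all 6 libraries, against 132 of 194 (68.0%) in the other clusters. For H3K27ac its mean was 80.2%, beside 80.0% in the 5 genes from ZNF554 to ZNF77, and it was the lowest in 3 of 6 libraries. Its H3K4me3 peaks were also short, with medians of 1280.5 to 1545 bp, against 2317.5 to 2656 bp in the cluster from ZNF565 to ZNF573.

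Sequence differed with the cluster too. The median number of CG dinucleotides was 41 in the pericentromeric cluster and 48.5 to 95 in the others. Among members with fewer than 60, its H3K4me1 share was 35.8% of 34 members against 79.6% of 72 members of other clusters, so the cluster was also lower within that range. Of the reads drawn from its promoters, 15.0% also matched an alternate contig of hg38, against at most 0.256% in the other clusters. The authors' lists include alternate contigs, which can take reads away from chr19. Without the 11 members that have such copies, H3K4me1 was at 48.7%, H3K4me2 at 78.2% and H3K4me3 at 85.3% of the remaining 26. In the 11 with copies these marks were at 18.2, 68.2 and 90.9%. In 6 of the 11, 50.6 to 100% of promoter reads matched such a contig, and in the others at most 6.41%. Of these 6, only ZNF100 had H3K4me1, in 1 library. Among the others, ZNF208 had none and the rest had it in 2 to 4 of 6 libraries. The part of base composition and of the copies in the result was not tested.

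**Figure D3:**
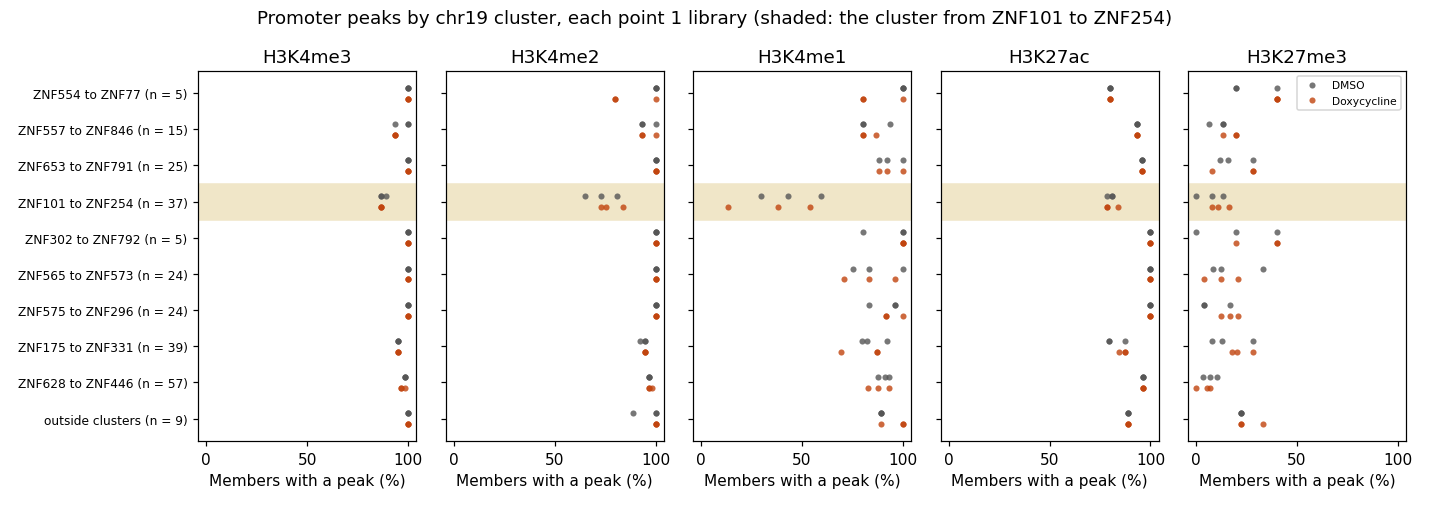
Share of members with a promoter peak (x axis, percent) in each library (points) of DMSO (grey) and Doxycycline (orange), for 9 clusters along chr19 and the 9 members outside them (y axis), and 5 marks. The shaded cluster from ZNF101 to ZNF254 lies lowest for H3K4me3, H3K4me2 and H3K4me1, reaching 13.5% for H3K4me1 in 1 library.

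H3K27me3 before the genes also differed among clusters. It covered 34.8% of the upstream stretch in the cluster from ZNF557 to ZNF846 and 48.1% in the 5 genes from ZNF302 to ZNF792, as means over 6 libraries. It covered 5.03% in the pericentromeric cluster and 4.07% from ZNF565 to ZNF573. In each of the 9 clusters coverage before the genes was higher than in the bodies in 6 of 6 libraries. In the 9 members outside the clusters this held in 4 of 6.

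A small group of members had no H3K4me3 in any library. These 7 genes were ZNF90, ZNF729, ZNF98 and ZNF723 of the pericentromeric cluster, ZNF577 and ZNF534 of the cluster from ZNF175 to ZNF331, and ZNF154 near the end of the long arm. None of the 7 had H3K27ac in any library, and 6 had H3K27me3 in at least 1. For ZNF90 and ZNF534 the count of H3K27me3 libraries was 1 of 3 in DMSO and 3 of 3 in Doxycycline. The fragment estimates of the H3K27me3 lists were 256, 112 and 105 bp in DMSO and 265, 280 and 108 bp in Doxycycline. Their part in these counts was not tested. All reads cut from the ZNF729 promoter also matched an alternate contig, while none did for the other 6, and the part of this copy in its lack of peaks was not tested. A further 3 members had H3K4me3 in some libraries: ZNF560 in 2, ZNF99 in 1 and ZNF418 in 4 of 6.

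ZNF154 and ZNF671, neighbours near the end of the long arm, held opposite states. Their promoters are often methylated in tumours. ZNF671 carried H3K4me3 in 6 of 6 libraries, with widths of 1356, 1361 and 1551 bp in DMSO and 1362, 1207 and 1087 bp in Doxycycline. It also carried H3K4me2 and H3K27ac in 6 of 6 libraries and H3K4me1 in none. ZNF154 had a single H3K4me1 peak in 1 DMSO library and no other peak. The densest start site of ZNF154 has 60 CG dinucleotides in 1 kb and that of ZNF671 has 59. The 250 bases before each start are printed with CG in capitals, from the RefSeq promoter table on GRCh38.p14, which held 210 of the 240 members. ZNF671 is at chr19:57727625-57727874 and ZNF154 at chr19:57709205-57709454, both on the minus strand and read 5′ to 3′.
ZNF671: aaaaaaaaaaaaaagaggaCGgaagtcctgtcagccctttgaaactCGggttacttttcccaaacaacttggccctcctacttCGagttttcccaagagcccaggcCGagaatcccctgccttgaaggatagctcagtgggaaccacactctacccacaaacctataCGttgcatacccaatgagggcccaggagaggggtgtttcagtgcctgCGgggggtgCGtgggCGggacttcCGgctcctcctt
ZNF154: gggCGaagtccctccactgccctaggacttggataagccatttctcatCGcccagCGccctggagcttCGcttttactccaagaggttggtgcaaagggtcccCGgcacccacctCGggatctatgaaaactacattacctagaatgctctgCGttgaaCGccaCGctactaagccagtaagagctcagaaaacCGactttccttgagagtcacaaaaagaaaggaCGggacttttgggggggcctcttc
The stretch of ZNF671 holds 9 CG and that of ZNF154 holds 11, counts reached by 54.1 and 50.3% of all 35116 promoters of the table. The promoters of ZNF671 and ZNF154 thus had like CpG content. Over the members as sets the counts in 1 kb differed. Their median was 49 in the 7 members without H3K4me3 and 62 in the 230 with it in all 6 libraries.

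The pericentromeric cluster offers a like pair. ZNF91 carried H3K4me3 in 6 of 6 libraries, 1509, 1729 and 1394 bp wide in DMSO and 1560, 1342 and 1303 bp wide in Doxycycline. It also carried H3K4me2 and H3K27ac in 6 of 6 and H3K4me1 in 4 of 6. ZNF90 carried none of the 4. Their upstream bases, on the minus strand at chr19:23395472-23395721 for ZNF91 and on the plus strand at chr19:20077750-20077999 for ZNF90, are shown because the 2 genes lie in 1 cluster and held opposite states.
ZNF91: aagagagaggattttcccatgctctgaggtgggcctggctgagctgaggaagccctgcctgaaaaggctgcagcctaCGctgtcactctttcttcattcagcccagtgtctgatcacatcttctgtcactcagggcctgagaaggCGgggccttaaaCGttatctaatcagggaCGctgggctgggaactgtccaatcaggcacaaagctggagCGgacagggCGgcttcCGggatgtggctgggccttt
ZNF90: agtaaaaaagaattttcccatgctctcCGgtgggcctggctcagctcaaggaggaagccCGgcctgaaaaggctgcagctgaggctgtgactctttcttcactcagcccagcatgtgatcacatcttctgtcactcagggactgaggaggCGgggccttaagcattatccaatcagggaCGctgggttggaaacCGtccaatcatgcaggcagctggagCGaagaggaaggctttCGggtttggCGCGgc
They hold 7 and 9 CG dinucleotides. The same 30 calls as ZNF91, with 0 differing, were found for ZNF675, ZNF431, ZNF383 and ZNF614, of which ZNF675 and ZNF431 lie in its cluster. ZNF93 differed from ZNF91 in H3K4me1, with peaks in 2 DMSO libraries and 1 Doxycycline library. ZNF208 and ZNF676 of the same cluster kept H3K4me3 in 6 of 6 libraries in short peaks, 249 to 788 bp and 236 to 778 bp wide. Neither carried H3K4me1 in any library, and H3K27ac was called once, for ZNF676 in Doxycycline replicate 1.

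H3K27me3 reached the promoter of 75 members in at least 1 library, and 165 (68.8%) had none, as did 55.1% of other chr19 genes and 64.4% of all genes. It was present in all 6 libraries at 5 members (2.08%), against 33.6% of other chr19 genes and 20.1% of all genes. These members were ZNF541, ZNF565, ZNF114, ZNF560 and ZNF556. ZNF541, a chromatin factor of male meiosis, was the clearest. Its H3K27me3 peaks were 83437, 34013 and 31523 bp wide in DMSO and 83586, 83397 and 30038 bp in Doxycycline, and they covered 85.7 to 100.0% of its body. Its H3K4me3 peaks were among the 3 narrowest of the members with the mark in all 6 libraries, at 429, 455 and 420 bp in DMSO and 480, 496 and 249 bp in Doxycycline, and it had no H3K27ac. With 97 CG dinucleotides its start is CpG-rich.
ZNF541: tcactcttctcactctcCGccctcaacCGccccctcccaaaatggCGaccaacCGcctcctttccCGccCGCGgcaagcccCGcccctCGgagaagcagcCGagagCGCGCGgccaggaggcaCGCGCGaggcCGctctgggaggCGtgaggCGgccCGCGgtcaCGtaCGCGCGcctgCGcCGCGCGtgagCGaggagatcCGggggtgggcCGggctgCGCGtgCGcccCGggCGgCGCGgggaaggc
ZNF560: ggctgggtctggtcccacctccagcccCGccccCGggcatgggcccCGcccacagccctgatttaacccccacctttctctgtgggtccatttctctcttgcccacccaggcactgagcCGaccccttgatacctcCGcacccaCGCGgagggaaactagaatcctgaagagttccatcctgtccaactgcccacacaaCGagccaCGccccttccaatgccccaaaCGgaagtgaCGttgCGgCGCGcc
The stretch shown for ZNF541, chr19:47573149-47573398 on the minus strand, holds 39 CG, as many as or more than all but 2.65% of the table. That of ZNF560, chr19:9498617-9498866 on the minus strand, holds 14. ZNF560 had H3K27me3 peaks 6432, 822 and 1475 bp wide in DMSO and 12012, 6777 and 771 bp in Doxycycline. Its H3K4me3 was called in DMSO replicates 1 and 2 alone, at 670 and 317 bp. ZNF565 and ZNF114 differed from these, since both carried H3K4me3, H3K4me2 and H3K27ac in 6 of 6 libraries beside H3K27me3.

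At the other end, the widest H3K4me3 belonged to ZNF574, at 7161, 7651 and 5269 bp in DMSO and 7456, 8229 and 5075 bp in Doxycycline. ZNF580 and ZNF581 followed with the same peaks, 6209 to 7168 bp wide, because their windows overlap. ZNF331, an imprinted gene, had H3K4me3 over 5355 to 6351 bp, ZNF846 over 4715 to 5782 bp and ZNF536, a repressor of neuronal differentiation, over 5163 to 5416 bp. ZNF846 had H3K27me3 in 5 of 6 libraries and the others named here in none. Among members with H3K4me3 in all 6 libraries, the narrowest after ZNF541 were ZNF676 and ZNF415.

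**Figure D4:**
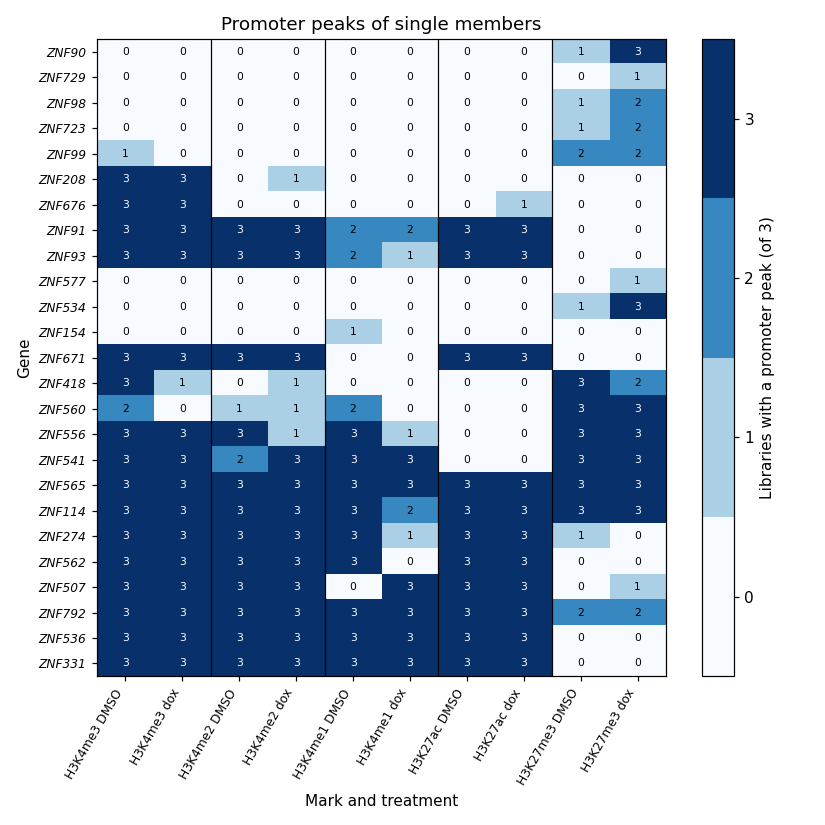
Number of libraries (0 to 3, shade and figure) with a promoter peak for 25 members (rows) in each mark and treatment (columns). ZNF90, ZNF729, ZNF98 and ZNF723 lack the 4 active marks, ZNF671 carries 3 of them beside its neighbour ZNF154, which has 1 H3K4me1 peak, and the 5 genes from ZNF560 to ZNF114 carry H3K27me3 in 6 of 6 libraries.

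Among 22 members with known roles, 19 had H3K4me3 and 16 had H3K27ac in all 6 libraries. They include ZNF274, which binds the 3′ ends of zinc finger genes and recruits SETDB1 there, ZNF473, which acts in histone mRNA processing, and ZNF350, a partner of BRCA1. ZNF154, ZNF577 and ZNF560 were the exceptions for H3K4me3. The partners through which KRAB proteins act carried the active marks. All 11 of TRIM28, SETDB1, ATF7IP, CBX1, CBX3, CBX5, CHD3, TASOR, MPHOSPH8, PPHLN1 and MORC2 had H3K4me3, H3K4me2 and H3K27ac in 6 of 6 libraries, as did 71.9, 71.8 and 64.2% of all genes. H3K4me1 was in 6 of 6 at 9 of the 11, against 61.4% of all genes, and 8 had no H3K27me3, against 64.4%.

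After 72 h of Doxycycline the share of marked members moved by at most 2.64 points in any mark. The change was -0.69 points for H3K4me3, 0.83 for H3K4me2, -2.64 for H3K4me1, 0.69 for H3K27ac and 2.64 for H3K27me3, and the ranges of DMSO and Doxycycline overlapped or, for H3K4me3 at 96.2%, touched in each mark. For H3K4me3 the SD within DMSO was 0.417 points and within Doxycycline 0.241 points (n = 3), both smaller than its change. The H3K4me1 change turned to 4.17 points with peaks of q 0.001 or less and to 3.75 with lists of equal length, and the H3K27me3 change was -0.625 points without replicate 2 and 5.62 without replicate 3. The H3K27me3 lists of replicate 2 had fragment estimates of 112 bp in DMSO and 280 bp in Doxycycline. The part of this estimate in the H3K27me3 change was not tested. Over all protein-coding genes the changes were -0.15, 1.41, -0.76, -0.70 and 1.90 points. A complete switch, with a peak in 3 of 3 libraries of a treatment and in 0 of 3 of the other, occurred at 1 member in each direction. The background was 0.466% of all genes losing and 0.511% gaining a peak of any mark in this way. ZNF562 was called for H3K4me1 in DMSO alone, with 500, 329 and 182 promoter bases under peaks in DMSO and 0 in each Doxycycline library. ZNF507 was called in Doxycycline alone, from 0 in each DMSO library to 120, 179 and 82 bases. Both kept H3K4me3, H3K4me2 and H3K27ac in 6 of 6 libraries. These H3K4me1 peaks were weak: with q 0.001 or less each gene kept a peak in 1 of 3 libraries, and the complete switches were then ZNF776 (lost) and ZNF567 (gained) for H3K4me1 and ZNF792 (gained) for H3K27ac. With 3 libraries against 3 the exact two-sided permutation test cannot go below 0.1, which is the p of both.

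The amount of promoter under peaks gave more cases. For H3K4me3, 20 members had fewer covered bases in every Doxycycline library than in any DMSO library and 3 had more, beside 4.6 and 2.19% of all genes. When libraries of the same replicate number were compared, 70 members were lower and 13 higher in all 3 pairs, beside 16.7 and 8.8% of all genes. Since a gene without a peak cannot be called, the 230 members with H3K4me3 in all 6 libraries are the closer base: 30.4% of them were lower in all pairs, against 29.5% of the 838 other chr19 genes with the mark in all 6. Higher in all pairs were 5.65% of these members and 11.7% of the other chr19 genes. The largest difference among the lower members was at ZNF556, with 1079, 1204 and 839 bases in DMSO and 451, 529 and 484 in Doxycycline (exact permutation p = 0.1).

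For H3K4me1, 15 members were lower and 6 higher without overlap, beside 4.85 and 3.27% of all genes, and by pairs 37 were lower and 22 higher, beside 13.9 and 10.3%. ZNF274 changed from 1767, 1433 and 2306 covered bases in DMSO to 311, 0 and 0 in Doxycycline. The groups did not overlap, but none of these H3K4me1 peaks passed q 0.001, so the difference was absent there. Its H3K4me3 went from 2022 to 2148 bases in DMSO to 1890 to 1983 in Doxycycline. Its upstream stretch at chr19:58182811-58183060 on the plus strand holds 14 CG.
ZNF274: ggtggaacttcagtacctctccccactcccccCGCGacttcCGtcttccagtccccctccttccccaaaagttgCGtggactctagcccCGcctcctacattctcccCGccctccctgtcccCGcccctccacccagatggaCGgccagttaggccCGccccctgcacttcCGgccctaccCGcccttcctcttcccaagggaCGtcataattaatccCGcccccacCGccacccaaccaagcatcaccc
Of the other members lower in H3K4me1, ZNF574, ZNF28 and ZNF284 had mean differences of -1846, -1306 and -1051 bases. For H3K4me2, 4 members were lower (ZNF260, ZNF420, ZNF528 and ZNF383) and 1 higher (ZNF792), beside 0.441 and 1.42% of all genes. By pairs 19 were lower and 20 higher, beside 2.49 and 13.1%. Among genes with H3K4me2 in all 6 libraries the pairs were lower at 8.76% of 217 members and 2.48% of 846 other chr19 genes, and higher at 7.83 and 20.7%. ZNF28, ZNF284, ZNF260, ZNF420 and ZNF528 were named after their values were seen.

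For H3K27ac, 9 members were lower and 18 higher without overlap, beside 4.62 and 3.52% of all genes. Of the 217 members with H3K27ac in all 6 libraries 8.29% were higher, against 7.72% of the 764 other chr19 genes so marked. For H3K27me3 no member was lower and 1 higher, ZNF415, beside 0.01 and 0.766%. ZNF415 had 860, 0 and 0 covered bases in DMSO and 3209, 1621 and 895 in Doxycycline, of which 1 library kept a peak at q 0.001. The part of the unlike fragment estimates of the H3K27me3 lists in this was not tested.

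Changes in several marks at once were rare. In at least 2 of the 4 active marks, 5 members were lower (ZNF562, ZNF708, ZNF225, ZNF582 and ZNF274) and 1 was higher, beside 1.39 and 1.2% of all genes. The higher gene was ZNF792, which was higher in all 4 marks, as were 4 of the 19970 genes. It was picked out after its values were seen. Its H3K27ac covered 298, 377 and 687 promoter bases in DMSO and 1238, 1242 and 1230 in Doxycycline, and its H3K4me1 covered 1349, 1013 and 384 against 1644, 1978 and 1968. H3K4me2 covered 1395, 1214 and 1236 bases against 1943, 1514 and 1513. H3K4me3 covered 1339, 1312 and 1357 promoter bases against 1396, 1442 and 1363. Its whole H3K4me3 peaks, which reach past the promoter, were 1339, 1312 and 1391 bp wide in DMSO and 2515, 2783 and 2184 bp in Doxycycline. With q 0.001 or less the groups overlapped in H3K4me1. In each mark the groups did not overlap, and the exact permutation p was 0.1. H3K27me3 was called at the same promoter in 2 of 3 libraries of each treatment. The stretch before its start, chr19:34964230-34964479 on the minus strand, holds 20 CG.
ZNF792: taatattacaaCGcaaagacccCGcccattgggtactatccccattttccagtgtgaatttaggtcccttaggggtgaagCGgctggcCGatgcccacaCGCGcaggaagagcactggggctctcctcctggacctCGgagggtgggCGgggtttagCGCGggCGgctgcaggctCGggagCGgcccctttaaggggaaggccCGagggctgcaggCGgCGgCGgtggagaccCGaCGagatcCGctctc
Of the 22 genes of known role, only ZNF582 was lower in both H3K4me3 and H3K27ac, by 134 and 95.7 bases. Of the 11 co-repressor genes, ATF7IP was lower in H3K4me3 and MPHOSPH8 in H3K27ac, CBX3 and CHD3 were higher in H3K4me1, and CBX3 was higher in H3K27ac, from 3625 to 4624 bases to 5840 to 7400.

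**Figure D5:**
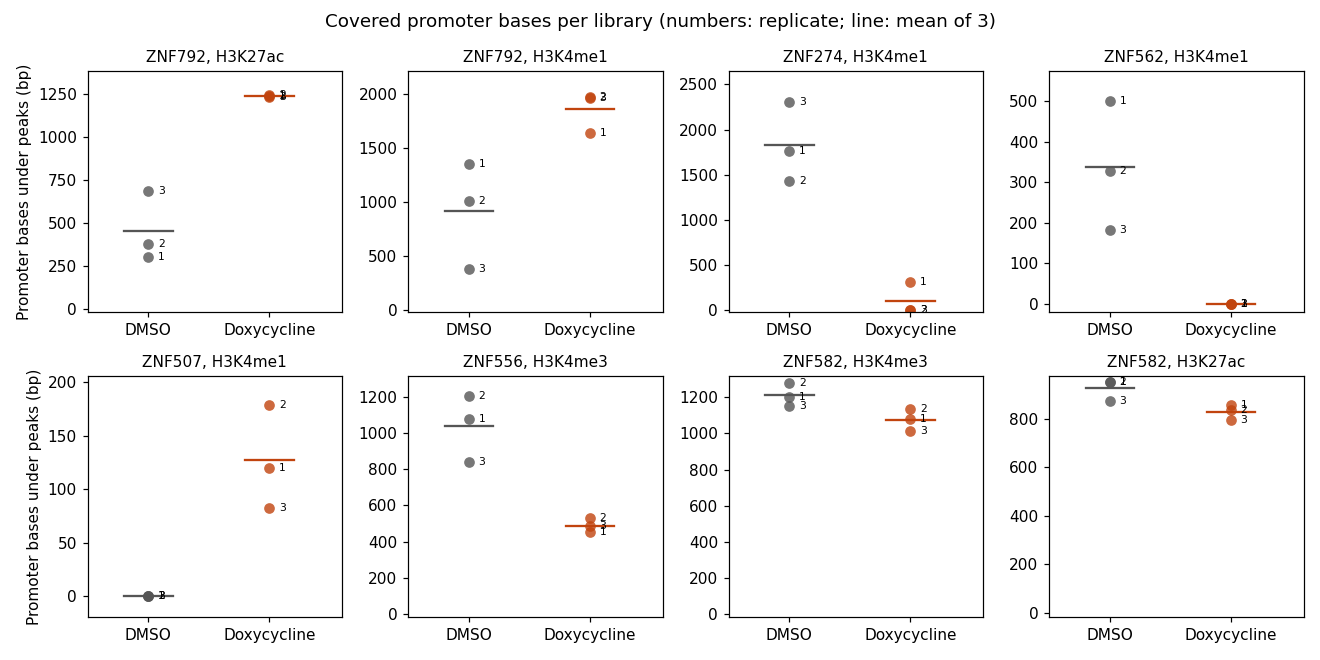
Promoter bases under peaks (y axis, bp) in each library (points, numbered by replicate) of DMSO (grey) and Doxycycline (orange), with means as lines, for 6 members in 8 gene and mark pairs, chosen because their groups do not overlap. In Doxycycline, H3K27ac of ZNF792 covers 1230 to 1242 bp and H3K4me1 of ZNF274 at most 311 bp.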

How the data were processed

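Per the file headers and the methods, the authors aligned reads to hg38 with Bowtie2, kept alignments of mapping quality 30 with SAMtools and called peaks in each library against an input with MACS2 2.1.1.20160309, without pooling. Broad lists (H3K4me1, H3K27ac, H3K27me3) used q 0.05 with linking at q 0.1, and narrow lists (H3K4me2, H3K4me3) were called at p 1e-5 per the file headers. Each deposited peak carries its pileup signal, a ratio of ChIP over the local input level (fold enrichment), and −log10 p- and q-values, all computed by the authors with MACS2. Fragments were modelled from single reads, and input libraries served more than 1 list. Within a treatment, the input read totals in the headers were the same for replicates 1 and 3 of every mark and differed for replicate 2. The 3 lists of a group were therefore not called independently of each other. The SDs, permutation tests and pairs given here take no account of this. Reads that fit near-identical copies may have been kept, which was not tested.

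Protein-coding genes came from GENCODE release 44. Overlaps were computed with Python 3.11.15, numpy 2.4.6 and pandas 2.3.3, and figures with matplotlib 3.10.9. The 7200 coverage values of members were checked against bedtools 2.31.1 and 7200 were equal. Bodies ran from 1 kb after the 5′ end. Uniqueness was computed with minimap2 2.31 from reads cut out of the reference, and sequences came from RefSeq, read with pysam 0.24.0. Treatments were compared over libraries by the exact two-sided permutation test of 3 against 3 (20 assignments). The scripts were tested on simulated data.

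Same-numbered libraries deviated together in H3K4me3 (r 0.361 to 0.642), H3K4me2 (0.155 to 0.533) and H3K4me1 (0.247 to 0.423), above the limit of 0.1 in each pair, so pairs are given for these marks. This pairing comes from the replicate numbers of the labels.

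Members, lists and tests were chosen with earlier results of these data known. Genes were named where they had known roles, switched completely, had H3K27me3 in all 6 libraries, had the 3 widest or narrowest H3K4me3 peaks, were co-repressors or had the calls most like ZNF91. The members lacking H3K4me3, those named for several marks at once, and ZNF846, ZNF776 and ZNF567, were added after their values were seen. Alternatives were other peak thresholds, windows, list lengths, cluster gaps, body starts and left-out replicates. The 4 inputs among the 34 samples were not analysed here. The count over the full list of lineage genes is not reported here.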

Additional observations from a re-analysis of the deposited data

How the results depend on the processing

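Of 386 values recomputed for 48 results, 257 stayed within the limits set, 121 moved and 8 changed sign. A q-value of 1e-10 and the alternatives for coverage before the genes were added after the data had been seen. A q-value of 0.001 removed no peak of the narrow lists. The causes of the moves were not tested. The 8 that changed sign were the H3K4me1 difference from other chr19 genes, which was -16.8 points at q 0.001, -3.15 with lists of equal length and -14.6 at q 1e-10, the H3K4me1 treatment change, which was 4.17, 3.75 and 0.556 points under the same 3 settings, the H3K27me3 treatment change, which was -0.625 to 5.62 points when a replicate number was left out, and the H3K27me3 log2 width ratio, which was 0.69 at q 1e-10.

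With the 5′ end of the gene as the only start site, DMSO and Doxycycline shares were 91.2 and 90.6% (H3K4me3), 88.2 and 89.6% (H3K4me2) and 85.7 and 86.2% (H3K27ac). The H3K27ac difference from other genes was 25.8 points, log2 width ratios were -0.27 (H3K4me3), -0.77 (H3K4me1), -0.92 (H3K27ac) and -2.87 (H3K27me3), and cluster ranges were 15.8 (H3K4me3) and 22.6 points (H3K27ac). With 2.5 kb windows, H3K27me3 shares were 24.4 and 26.8%, differences were 23.6 (H3K4me3), 17.8 (H3K4me2), 24.3 (H3K27ac) and -19.9 points (H3K27me3), and width ratios were -0.41 (H3K4me3), -0.58 (H3K4me2) and -2.97 (H3K27me3). Without the first 2.5 kb of the body, its coverage differed by -2.58 (H3K4me3) and -12.1 points (H3K4me1).

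At q 0.001, DMSO and Doxycycline shares were 48.1 and 52.2% (H3K4me1), 90.4 and 91.4% (H3K27ac) and 3.06 and 6.11% (H3K27me3), the H3K27ac difference was 28.3 points, the H3K27me3 width ratio -1.38 and its cluster range 19.1 points. At q 1e-10 the shares were 96.1 and 95.6% (H3K4me3), 91.5 and 92.8% (H3K4me2), 2.5 and 3.06% (H3K4me1), 77.8 and 81.9% (H3K27ac) and 0.417 and 0.556% (H3K27me3). Differences were then 22.5 (H3K27ac) and -7.77 points (H3K27me3), the H3K27ac treatment change 4.17 points, body differences -4.48 (H3K4me1), -7.12 (H3K27ac) and -5.94 points (H3K27me3), and cluster ranges 32.4 (H3K4me2), 5.56 (H3K4me1), 35.4 (H3K27ac) and 2.08 points (H3K27me3). With lists of equal length, DMSO shares were 96.2% (H3K4me3) and 69.4% (H3K4me1) and the H3K27me3 width ratio -2.92. Leaving out a replicate number gave an H3K27ac cluster range of 20 to 20.9 points. H3K27me3 coverage before the genes exceeded that in the body by 12.2 points and by 6.99 to 15.4 under the alternatives.

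The shares of all genes under the following settings are not given. The counts of members therefore show only how far the calls depend on the setting, and cannot be set against a background. Complete losses numbered 2 with the 5′ end alone, 0 with equal lists and 0 at q 1e-10, and gains 2 at q 0.001, 3 with equal lists and 0 at q 1e-10. Members not overlapping between treatments numbered, with the 5′ end alone, 8 (H3K4me3 higher), 4 (H3K4me2 higher) and 10 (H3K27ac higher). With 2.5 kb windows they numbered 1 (H3K4me2 lower) and 3 (H3K27me3 higher). At q 0.001 they numbered 7 and 3 (H3K4me1 lower and higher) and 0 (H3K27me3 higher). With equal lists they numbered 2 (H3K4me2 higher), 7 and 15 (H3K4me1 lower and higher) and 0 (H3K27me3 higher), and at q 1e-10, 2 (H3K4me2 higher), 0 and 0 (H3K4me1) and 0 (H3K27me3 higher). Leaving out each replicate number leaves 2 libraries against 2, where overlap is rarer by construction: losses were then 4 to 9, gains 3 to 12, and lower and higher members 46 to 67 and 10 to 27 (H3K4me3), 5 to 31 and 3 to 33 (H3K4me2), 39 to 49 and 13 to 29 (H3K4me1), 23 to 32 and 31 to 44 (H3K27ac) and 0 to 1 and 3 to 10 (H3K27me3).

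Under the replicate block, which asks for the same direction in 3 of 3 pairs, lower and higher members numbered 70 and 13 (H3K4me3), 19 and 20 (H3K4me2), 37 and 22 (H3K4me1), 30 and 41 (H3K27ac, beside 10.8 and 10.4% of all genes) and 0 and 9 (H3K27me3, beside 0.165 and 4.81%). For H3K27ac and H3K27me3 the smallest correlations of same-numbered libraries were 0.084 and -0.54, so not every pair of these libraries passed 0.1 and their pairs are given only here.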
